A study of Mus musculus with 8 samples.

Results

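The protease genes 2010106G01Rik and Ide were followed across whole small intestinal (SI) tissue of wild type (WT) and Smarcad1-KO (KO) mice. They are the 2 rows with these names among the 119 genes of the deposited expression table. 2010106G01Rik is an older name of Sppl2a, as the RefSeq synonyms and an exact match of its coordinates to Sppl2a in GENCODE both show. The table held 4 WT and 4 KO libraries from male C57BL/6 mice, whose age is not given in the sources used here. KO mice lacked the chromatin remodeler Smarcad1 in the intestinal epithelium. In these mice a Villin-driven Cre recombinase (Vil-Cre) removed a part of Smarcad1 flanked by loxP sites. The labels call the controls wild type and do not say whether they carried the loxP or the Cre allele, and a single targeted mouse line was used. Since RNA came from the whole organ wall, muscle, stroma and immune cells in which Vil-Cre does not act contributed as well.

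Sppl2a encodes an intramembrane aspartyl protease of late endosomes and lysosomes. It cuts the membrane stubs that remain after other proteases have trimmed proteins such as the invariant chain of MHC class II (Cd74) and tumour necrosis factor, and it is best known from B cells and dendritic cells. Ide encodes insulin-degrading enzyme, a zinc metallopeptidase that is mostly cytosolic and breaks down insulin, amylin and amyloid beta. The enzymes thus share neither a catalytic mechanism nor a main compartment.

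The coding bases of the catalytic motifs are shown to set these unlike mechanisms side by side. They were read from the annotated principal transcripts, with the codons of each motif in capitals. In 2010106G01Rik these motifs carry the catalytic aspartates, and in Ide the motif binds zinc. Each motif occurred once in its translated protein.
2010106G01Rik first aspartate: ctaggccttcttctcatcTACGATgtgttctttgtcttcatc
2010106G01Rik second aspartate: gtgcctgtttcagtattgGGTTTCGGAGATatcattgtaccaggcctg
Ide zinc site: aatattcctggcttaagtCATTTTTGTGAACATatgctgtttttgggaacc

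2010106G01Rik (ENSMUSG00000027366.12) lies on the minus strand of chromosome 2 (GRCm38, 126890391 to 126933235). Its principal transcript has 15 exons over 5616 bases. A microRNA gene, Mir3473g, lies within an intron on the same strand. Ide (ENSMUSG00000056999.15) lies on the minus strand of chromosome 19 (GRCm38, 37268743 to 37337852). Its principal transcript has 24 exons over 4962 bases and is annotated as incomplete at the 5′ end. A ribosomal protein pseudogene, Rpl10-ps6, lies in an intron of Ide on the same strand, so reads placed there cannot be told apart from Ide reads where introns were counted.

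Values are RPKM, read counts divided by feature length and by library depth, as the authors calculated them. The kilobases were those of the genomic span, introns included. On that basis all 939 values above 0 in the table came out as whole reads, within 0.05 of a read. The reads so recovered gave 56981718 to 78026422 mapped reads per library, and the levels below rest on 7695 to 19348 reads for 2010106G01Rik and 3442 to 5379 reads for Ide. Counting error alone was therefore at most 1.14% and 1.70% of a value. The tissue could not be checked with the marker lists used here. Of their genes, the table held 0 of 12 epithelial, 0 of 9 smooth muscle or stromal and 0 of 8 leukocyte markers. Alpha-defensin genes of Paneth cells, which these lists leave out, were in the table, with Defa24 the highest listed gene in WT (mean 2701 RPKM). The authors had limited the table used here to genes under a DESeq2 FDR of 0.05 for KO against WT. Both proteases had thus been selected on these same 8 libraries, and no p-value given here is independent evidence of a difference. Smarcad1, the targeted gene, fell by 29.5%, from a WT mean of 0.334 ± 0.0288 RPKM to a KO mean of 0.235 ± 0.0308 RPKM (SD, n = 4 each; limma adjusted p = 0.0106), and its groups did not overlap.

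The group means of the proteases differed in opposite directions. 2010106G01Rik rose 1.65-fold in KO, beyond the spread between libraries. Ide had a mean 16.5% lower in KO, with groups that overlapped and a difference that did not pass the test. Of the 2 genes, 1 was called by limma, where 79% of the 119 listed genes were. By direction, 48.7% of listed genes were called higher and 30.3% lower in KO. Of the 59 genes with higher means in KO, limma called 58.

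2010106G01Rik stood at 3.23, 3.42, 3.81 and 2.55 RPKM in WT libraries 1 to 4. It stood at 6.11, 4.63, 5.53 and 5.23 RPKM in KO libraries 1 to 4. The lowest KO library, KO 2, lay above the highest WT library, WT 3, and the 16 possible ratios of a KO to a WT library ran from 1.22 to 2.39. A lack of overlap was common in this table of selected genes, at 71.4% of them. It held for 58 of the 59 listed genes with higher means in KO. The WT mean was 3.25 ± 0.524 and the KO mean 5.38 ± 0.619 RPKM (SD, n = 4 each). The change of 0.72 on the log2(RPKM + 0.1) scale had an SE of 0.14 and a 95% interval of 0.40 to 1.03 (limma, adjusted p = 0.00238 over the 119 genes). On this scale it was the median change of the 59 listed genes with higher means in KO, so that its rise was of ordinary size for the table. By the ratio of mean RPKM it ranked 42nd of these 59. The adjusted p lay between 0.00212 and 0.00810 with any 1 library left out, and the smallest change, 0.61, came without WT 4. In whole tissue, more cells that express a gene and more RNA per cell cannot be told apart.

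Ide stood at 1.12, 1.12, 1.23 and 0.890 RPKM in WT libraries 1 to 4. It stood at 1.04, 0.849, 0.835 and 0.922 RPKM in KO libraries 1 to 4. WT 4 lay below 2 of the 4 KO libraries, KO 1 and KO 4, whereas the other 3 WT libraries lay above all KO libraries. The WT mean was 1.09 ± 0.143 and the KO mean 0.910 ± 0.0919 RPKM (SD, n = 4 each). The difference was -0.23 on the log2(RPKM + 0.1) scale, with an SE of 0.12 and a 95% interval of -0.50 to 0.04 (limma, adjusted p = 0.102). An exact two-sided permutation test of this gene alone gave p = 0.0857 (n = 4 each). The interval holds no difference as well as a fall larger than the one observed. Leaving out 1 library altered this outcome. Without WT 4 the WT mean was 1.16 ± 0.0644 RPKM (SD, n = 3), the KO mean was 21.3% lower, the groups did not overlap and the limma adjusted p was 0.0340. No other single library, when left out, brought Ide under 0.05. Ide was 1 of 33 listed genes with lower means in KO whose groups overlapped, out of 60 with lower means, and 52nd of the 60 by the size of its fall.

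**Figure D1:**
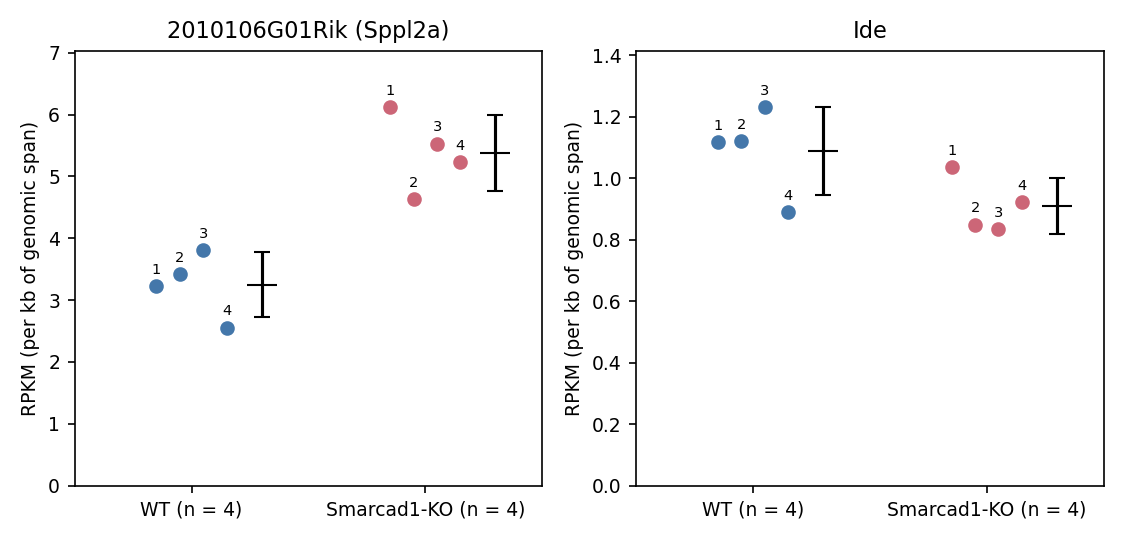
RPKM of 2010106G01Rik (left) and Ide (right) in each library, WT in blue and KO in red, numbered as in the labels, with the group mean and SD (n = 4) in black and each y axis starting at 0. The 4 KO libraries lie above all 4 WT libraries for 2010106G01Rik, while for Ide WT 4, at 0.890 RPKM, lies among the KO libraries.

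Within WT the libraries had the same order for both genes, although WT 1 and WT 2 were nearly tied for Ide, at 1.118 and 1.120 RPKM. Among WT libraries both were lowest in WT 4 and highest in WT 3, with WT 1 and WT 2 between them in that order. Among KO libraries both were highest in KO 1, but the order below it differed: KO 3 was the second highest for 2010106G01Rik and the lowest for Ide, and KO 2 was the lowest for 2010106G01Rik. Across the 8 libraries, the deviations of the genes from their group means had a Pearson correlation of 0.90 on the log2(RPKM + 0.1) scale, given as a description because values of 1 library share its depth and scaling. The median correlation of 2010106G01Rik with the other 117 listed genes, computed likewise, was 0.33, and 2 of them reached that of Ide. WT 1 and WT 4 were low for many listed genes, being the lowest WT library for 47.5% and 35.6% of 118 genes. Median-of-ratios factors over the listed genes were 0.825 for WT 1 and 0.840 for WT 4, against 0.997 to 1.08 for the other 6 libraries. With the RPKM divided by these factors, Ide passed the limma test at a log2 change of -0.37 ± 0.10 (SE, adjusted p = 0.00799) and its groups no longer overlapped. The change of 2010106G01Rik was 0.56 ± 0.10 (SE, adjusted p = 0.00176). The factors come from genes selected for a difference between the groups. The same scaling changed the calls over the table from 58 higher and 36 lower to 58 higher and 57 lower. With it 115 of the 119 listed genes were called, and the number without overlap between groups went from 85 to 110. Under this scaling, passing the test and a lack of overlap therefore did not set Ide apart from most listed genes.

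To compare the proteases free of any such scaling, the ratio of 2010106G01Rik to Ide was taken within each library. It was 2.89, 3.05, 3.09 and 2.87 in WT libraries 1 to 4. It was 5.90, 5.45, 6.63 and 5.67 in KO libraries 1 to 4. The WT ratios lay close together, and every KO ratio lay far above every WT ratio. The mean ratio rose 1.99-fold from 2.97 ± 0.114 to 5.91 ± 0.510 (SD, n = 4 each). The spread of the ratio in WT, 3.82% of its mean, was smaller than that of either gene alone, at 16.1% for 2010106G01Rik and 13.1% for Ide. In KO the ratio spread by 8.63%, against 11.5% and 10.1% for the single genes. The changes of the genes differed by 0.95 on the log2(RPKM + 0.1) scale (p = 0.0286 in an exact two-sided permutation test, which cannot go lower with 4 libraries a group). As both genes had been selected on these libraries, with means that differ in opposite directions, this difference was largely fixed by the selection and its p is a description. The ratio does not tell which of the genes moved.

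**Figure D2:**
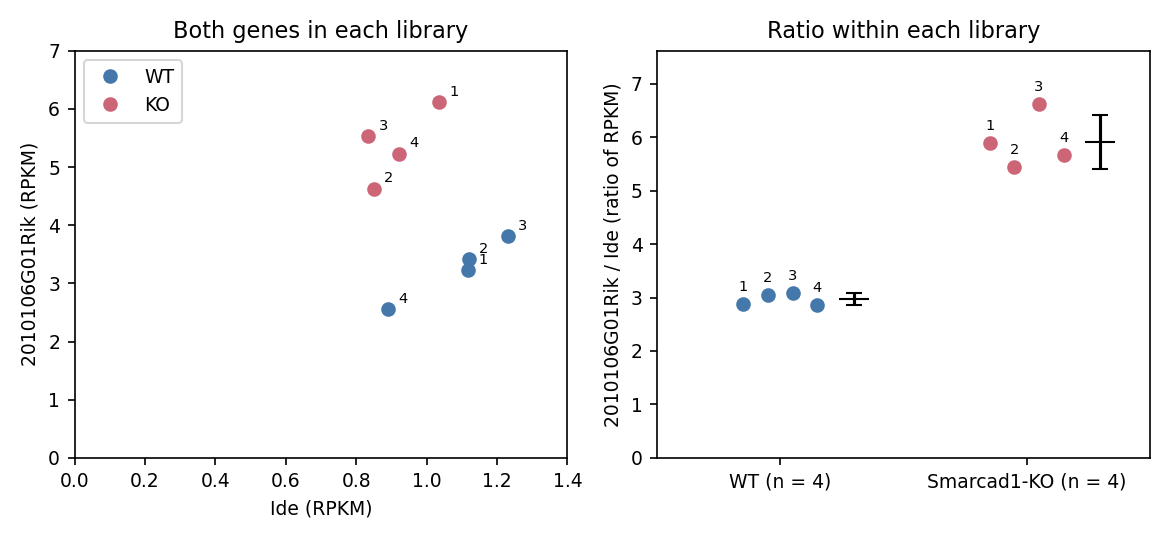
Left, RPKM of 2010106G01Rik against RPKM of Ide with 1 point per library, numbered as in the labels. Right, the ratio of these values in each library with group mean and SD (n = 4), where WT libraries sit between 2.87 and 3.09 and KO libraries between 5.45 and 6.63.

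Levels of different genes can be compared only per length. Per kilobase of span, 2010106G01Rik ranked 36th and Ide 57th of the 119 genes by mean RPKM in WT. Merged exons make up 20.2% of the span of 2010106G01Rik and 10.9% of that of Ide. If all reads are assigned to exons, as the study's methods describe, the level of 2010106G01Rik per kilobase of exon becomes 16.1 ± 2.59 RPKM for WT libraries and 26.6 ± 3.06 RPKM for KO libraries. That of Ide becomes 10.03 ± 1.32 RPKM for WT libraries and 8.38 ± 0.846 RPKM for KO libraries (SD, n = 4 each). The level of 2010106G01Rik was then 1.60 times that of Ide in WT and 3.17 times in KO. The change between groups of either gene is the same on both scales of length. Whether reads in introns were counted was not settled.

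Other genes of the same pathways were looked up in fixed lists. Of 11 further intramembrane aspartyl proteases and gamma-secretase subunits, the table held 0. It held 0 of 10 substrates of Sppl2a or proteases that act before it, and 0 of 11 MHC class II, B cell or dendritic cell markers. Of 15 further genes of the zinc metallopeptidase family of Ide or for other peptide-degrading proteases, it also held 0. The levels of all these genes were therefore not analysed here. Absence from a table of selected genes does not show that a level was the same in both groups. A further list of 15 genes took in Ide substrates, insulin signalling and relatives of the amyloid precursor protein. Of these, 2 were in the table, and both were called higher in KO. So were 48.7% of the 119 listed genes, and 58 of the 59 with higher means in KO. Irs2, an adaptor that passes on the signal of the insulin receptor, ran from 0.664 to 0.840 RPKM in WT and from 1.06 to 1.39 RPKM in KO. Its log2 change was 0.59 ± 0.12 (SE, limma adjusted p = 0.00238). Aplp1, on the list as a relative of the amyloid precursor protein, ran from 5.79 to 9.91 RPKM in WT and from 14.7 to 20.2 RPKM in KO. Its log2 change was 1.13 ± 0.18 (SE, limma adjusted p = 6.50e-04). Neither gene overlapped between the groups, which was so for 58 of the 59 listed genes with higher means in KO. Of 7 genes listed as pancreas markers, the table held 2, Clps and Pnliprp2. Their limma log2 changes were -0.46 ± 0.15 and -0.62 ± 0.18 (SE, adjusted p = 0.0166 and 0.0106). Of the 119 listed genes, 30.3% were called lower in KO. The groups of Clps overlapped, and its adjusted p was 0.0502 in limma without KO 1 and 0.0694 in the exact permutation test. Whether the RNA of Clps and Pnliprp2 came from pancreas was not tested. The part of pancreatic RNA in the values of the proteases was not tested either.

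**Figure D3:**
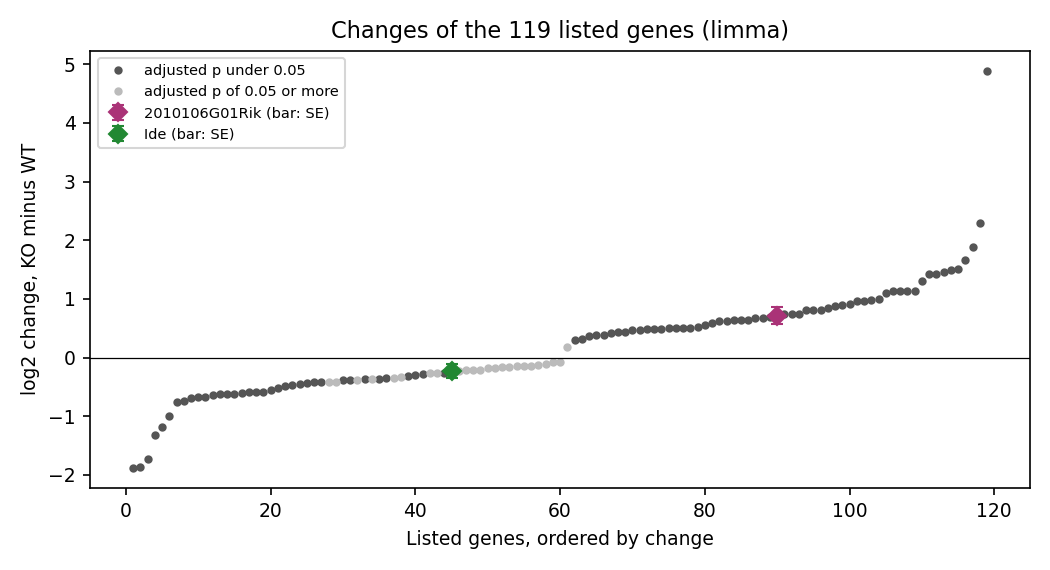
Log2 change (KO minus WT, log2(RPKM + 0.1) scale) of each of the 119 listed genes in order of change, dark where the limma adjusted p was under 0.05 and light otherwise. 2010106G01Rik, at 0.72, lies amid the higher genes, and Ide, at -0.23, is a light point among the smaller falls.

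The listed genes most like each protease were ranked by Pearson correlation of log2(RPKM + 0.1) over the 8 libraries, which takes in the difference between the groups as well as the spread within them. For 2010106G01Rik these were Aplp1 (r = 0.98), Irs2 (r = 0.97) and Sec14l2 (r = 0.97), a lipid-binding protein gene that rose from 1.01 ± 0.261 to 1.81 ± 0.219 RPKM (SD, n = 4 each; limma adjusted p = 0.00351). The second and the third place were nearly tied. For Ide they were Ccng1 (r = 0.87), Gprc5a (r = 0.87) and Tiam1 (r = 0.85). Ccng1 encodes cyclin G1, Gprc5a an orphan G protein-coupled receptor and Tiam1 an exchange factor for the GTPase Rac. Gprc5a fell from 1.71 ± 0.421 to 1.11 ± 0.122 RPKM (SD, n = 4 each; limma adjusted p = 0.0122), but its groups overlapped and it did not pass the exact permutation test (adjusted p = 0.0694). Ccng1, with a WT mean of 12.8 ± 1.68 and a KO mean of 10.7 ± 1.51 RPKM (SD, n = 4 each), did not pass the test (limma adjusted p = 0.101), nor did Tiam1, at 0.0589 ± 0.00516 and 0.0437 ± 0.00776 RPKM (SD, n = 4 each; limma adjusted p = 0.159). Ccng1 came under 0.05 without WT 4 and without KO 1, at limma adjusted p of 0.0490 and 0.0438. Tiam1 came under 0.05 with a pseudocount of 0.01 (limma adjusted p = 0.0381) and in a voom fit of the recovered reads (limma adjusted p = 0.0278).

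For each protease the nearest listed gene on its chromosome was looked up. Chromosome 2 held 3 listed genes, and the nearest to 2010106G01Rik was the phosphate transporter gene Slc20a1, 2266 kb away. Slc20a1, with a WT mean of 2.52 ± 0.358 and a KO mean of 2.15 ± 0.202 RPKM (SD, n = 4 each), did not pass the test (limma adjusted p = 0.148). As with Ide, it came under 0.05 without WT 4 (adjusted p = 0.0490). Ccng1, Tiam1 and Slc20a1 also passed with listed-gene scaling, at limma adjusted p of 0.00404, 0.0215 and 0.0291. Chromosome 19 held 5 listed genes, and the nearest to Ide was Fgfbp3, a carrier of fibroblast growth factors, 349 kb away. Fgfbp3 fell from 0.820 ± 0.131 to 0.497 ± 0.0564 RPKM (SD, n = 4 each; limma adjusted p = 0.00304) and did not overlap between the groups, although only 56 to 128 reads per library stood behind it.

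The sequence around the start of 2010106G01Rik is shown because it is the protease gene that rose. It runs from 140 bases before to 15 bases into the annotated transcript (RefSeq, GRCm38, minus strand, chr2:126933221-126933375). Capitals mark 2 motifs picked after the sequence had been read, TGACGT, the core of a cyclic AMP response element, and GAAANNGAAA, the core of an interferon-stimulated response element.
2010106G01Rik start: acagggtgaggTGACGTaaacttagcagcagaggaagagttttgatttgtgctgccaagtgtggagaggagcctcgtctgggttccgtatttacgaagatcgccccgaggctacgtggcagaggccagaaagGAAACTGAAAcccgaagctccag
The first motif begins 129 bases and the second 8 bases before the start. On either strand, TGACGT was present in 7.51% and GAAANNGAAA in 3.44% of 32851 RefSeq windows of 300 bases around gene starts. Counted by gene, GAAANNGAAA was in the windows of 2 of 88 listed genes (2.27%), 2010106G01Rik and Apobec3, against 3.99% of all 27025 genes with a window. Apobec3, a cytidine deaminase gene, moved the other way, with a log2 change of -0.35 ± 0.13 (SE, limma adjusted p = 0.0316). The RefSeq window of Ide holds neither motif. It is not shown, because its start lies 3308 bases inside the span and matches the start of 0 of the 5 annotated GENCODE transcripts. These matches are letters in a window, and binding was not measured in these libraries.

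**Figure D4:**
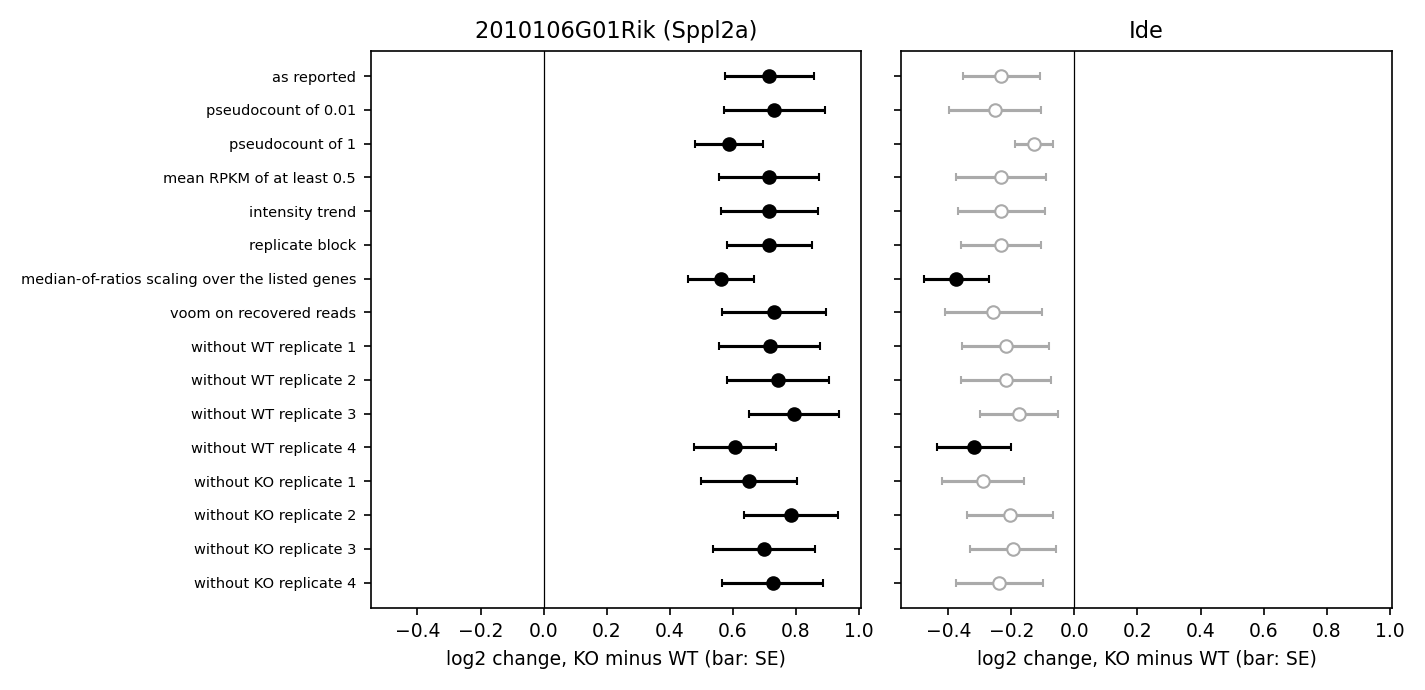
Log2 change of 2010106G01Rik (left) and Ide (right) with its SE under each way of fitting, on 1 common x axis; filled points have a limma adjusted p under 0.05. 2010106G01Rik passed under each of the 16 fits, and Ide passed with listed-gene scaling and without WT replicate 4 only.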

How the data were processed

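RNA-seq libraries of 4 WT and 4 KO samples were grouped by their titles. The authors trimmed reads with Trim Galore 0.4.1, mapped them to GRCm38 with HiSat2 2.0.1, quantified unique reads over exons of merged transcripts with SeqMonk and deposited RPKM per library for genes under a DESeq2 FDR of 0.05. The deposited table also holds the authors' group mean RPKM and the authors' DESeq2 FDR (an adjusted p-value); neither was used. Here log2(RPKM + 0.1) of all 119 genes was fitted with limma 3.58.1 in R 4.3.3 (lmFit, eBayes, group as the only term), with Benjamini-Hochberg adjustment over the 119 genes, a threshold of 0.05 and limma's 95% intervals. The fit was also run on simulated data, with values drawn independently, no selection of genes and no shift shared within a library. That run therefore does not cover these features of the table. Single values were compared by exact permutation over libraries in Python 3.11.15. Named genes were the members, Smarcad1, genes of the fixed lists, the 3 listed genes most correlated with each member and the nearest listed gene. Apobec3, Defa24 and the sequence motifs were chosen after their values or letters were seen. List genes were matched by current and older RefSeq symbols. Members and lists were chosen with earlier results of these data known. Nothing in the labels says that libraries came from separate animals, so p-values measure the spread between these libraries.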

Additional observations from a re-analysis of the deposited data

How the results depend on the processing

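2010106G01Rik kept its direction and its call under all 16 alternatives, at log2 changes of 0.56 to 0.79. Ide kept its direction under all 16 and passed under 2, at -0.37 with listed-gene scaling and at -0.32 without WT replicate 4. Without 1 library its change ran from -0.32 to -0.18, and its adjusted p over all alternatives from 0.00799 to 0.231. The difference between the changes ran from 0.90 to 0.99 without 1 library, where 3 against 4 libraries cannot give an exact p below 0.0571. The listed genes past the threshold became 56 of 77 with a mean RPKM of at least 0.5 and 62 at a threshold of 0.01, and genes without overlap became 50 of those 77, since fewer genes were tested or the threshold was stricter. Smarcad1 could not be fitted with that filter and kept its call under the other 15 alternatives.

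Same-numbered deviations across 77 genes correlated at 0.27, 0.21, -0.11 and -0.03. Libraries of different numbers were not compared, so these values cannot decide whether the numbers are pairs. The main fit did not take them as pairs, and a replicate block was run as an alternative. With the replicate block 90 genes passed, 2010106G01Rik among them (limma adjusted p = 0.00644) and Ide not (limma adjusted p = 0.138). The difference between the changes was 0.95 with the block, where an exact sign-flip test of 4 pairs gave p = 0.125, the smallest it allows. Limma on the within-library ratio gave an adjusted p of 1.34e-04, and with the block, an alternative chosen after seeing the data, 0.00218.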
